A study of Arabidopsis thaliana with 2 samples.

Results

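The genes described here encode enzymes that put double bonds into the fatty acids of leaf membranes, together with SFR2, a membrane enzyme of freezing tolerance. Other desaturase genes exist and are treated below as paralogs outside the set. The genes of the set were chosen by gene ID and are FAD2, FAD3, FAD5, FAD6, FAD7, FAD8, SSI2, ADS1, ADS2 and SFR2, which makes 10 genes among 18345 listed genes. All 10 were listed in both libraries, and all 10 passed a minimum of 5 CPM (reads scaled to a total of 1000000 over the listed genes) in at least one of them. The RNA came from leaves of Arabidopsis thaliana plants that were 2 weeks old. All plants had grown in long days at 90 µmol of photons per square metre per second and had then spent 24 h at 4 °C in long days at 40 µmol. The wild type was the accession Col-0. The mutant was npr1-1, a point mutant of NPR1, the co-activator through which salicylic acid switches on defence genes. There was 1 library of each genotype, so each difference below is a difference between 2 libraries with no replicate check, and every interval covers counting error only. Whether plants were pooled is not given in the sources used here, and since both groups were cold-treated the values give no response to cold.

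Desaturation keeps membranes fluid at low temperature. Fatty acids leave the plastid's synthesis as saturated chains or with a first double bond, and further bonds are added by membrane-bound desaturases that work in parallel in the chloroplast envelope and in the endoplasmic reticulum. Arabidopsis mutants in several of these enzymes are known for damage in the cold, and SFR2 remodels galactolipids of the outer chloroplast envelope when cells freeze.

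The membrane-bound desaturases share clusters of histidines that hold iron at the active site, and the codons of the last such cluster show how the members are related. The pattern searched was that of histidine, any residue, any residue, histidine and histidine, read in frame from the coding sequences of RefSeq (build TAIR10.1). It was present in 8 of the 10 members, with 2 matches in each of the 8, and in 2.07% of 27444 coding sequences. SSI2, a soluble enzyme of the plastid stroma, and SFR2, a relative of beta-glucosidases, had no match. For 6 of the 8, the match nearest the end of the coding sequence is printed, with its codons in capitals, because it separates the families.
FAD2: gacacaCACGTGGCTCATCACctgttc
FAD3: ggaactCACGTGATCCATCATctcttc
FAD6: aacgttCACATCCCGCATCATattagc
FAD5: ggatggCACAACAATCACCATgctttt
ADS1: agctggCACAACAATCACCACgccttc
ADS2: agttggCACAACAATCATCATgcgttc
FAD5, ADS1 and ADS2 share AACAAT between the first pair of histidine codons, and the other members printed have other letters there. The coding sequence of FAD5 shared 62.4% of aligned bases with ADS1 and 61.2% with ADS2, and from 39.2% (FAD3) to 46.3% (FAD7) with the other FAD members, so in sequence FAD5 belongs with the ADS genes. No member had another transcript at 90% identity or more over at least 50% of its length. FAD7 and FAD8 were the closest pair of members, at 83.3% identity over 1299 aligned coding bases.

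FAD5 was the member that differed most between the libraries, and it was higher in npr1-1. The other 9 members differed by 14.3% or less in either direction. On the log2(CPM + 1) scale 0 of the 10 members were at least 2-fold apart, against 0.73% of the 13976 genes past the minimum, 0.2% higher and 0.529% lower. At 1.5-fold 1 of the 10 was apart, which was FAD5, against 2.97% of all genes, 0.909% higher in npr1-1 and 2.06% lower. The median log2 difference (npr1-1 minus Col-0) of the 10 members was 0.01, with 5 above 0 and 5 below, and that of the other 9 members was -0.01. The median of all genes was -0.05, with 5736 above 0 and 8240 below. Under median-ratio scaling, as under trimmed-mean (TMM) scaling, which both moved the median of all genes up by 0.04, 7 of the 10 members were above 0 and 3 below. Under either of these scalings 48.9% of all genes were above 0. In whole leaves, fewer cells of a type and less RNA per cell cannot be told apart.

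**Figure D1:**
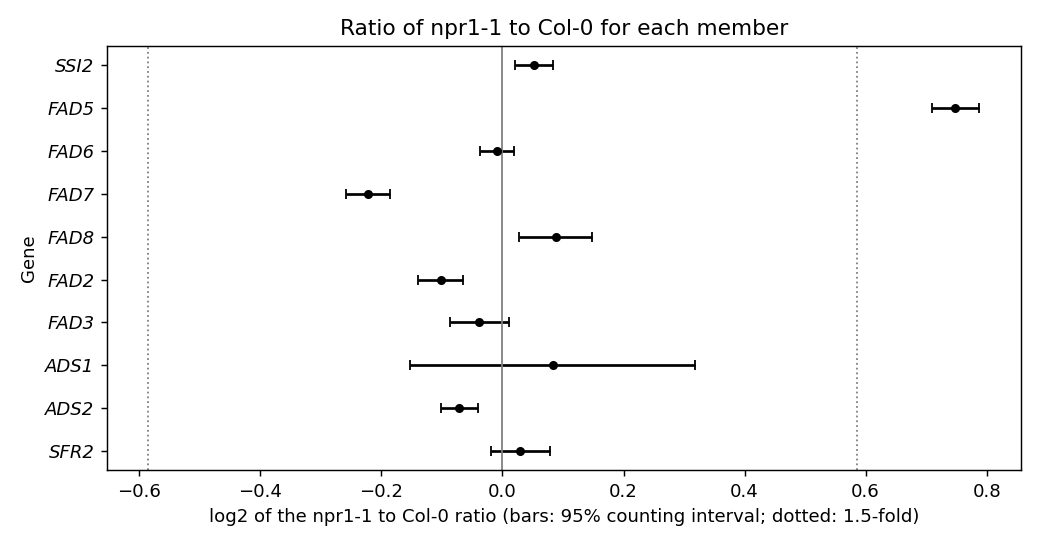
The log2 of the npr1-1 to Col-0 ratio of CPM (x axis) is plotted for each member (y axis), with bars for the 95% counting interval and dotted lines at 1.5-fold. FAD5, at a ratio of 1.68, lies to the right of the dotted line, and the other 9 members lie between 0.857 and 1.06.

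SSI2 (AT2G43710, chromosome 2, 18119962 to 18122889, plus strand, TAIR10) encodes the main stearoyl-ACP desaturase, which makes oleic acid in the stroma. It takes its name from a screen for suppressors of an npr1 mutant, in which its loss restored responses to salicylic acid. SSI2 stood at 315 CPM in the wild type and 327 CPM in the mutant, or 16034 and 16653 reads. The ratio of npr1-1 to Col-0 was 1.04, and its 95% counting interval, given in brackets from here on, ran from 1.01 to 1.06, so the levels in the mutant and the wild type were close. Of its 6 paralogs, 4 were listed and 2 passed the minimum. AT3G02630, annotated as a stearoyl-ACP desaturase, stood at 26.8 and 21.5 CPM, and AT5G16240, of the same family, at 13.3 and 12.5 CPM.

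FAD5 (AT3G15850, chromosome 3, 5359009 to 5361185, plus strand) encodes the plastid desaturase that acts on palmitic acid bound to monogalactosyldiacylglycerol, the main lipid of thylakoids. FAD5 stood at 164 CPM in the wild type and 276 CPM in the mutant, or 8344 and 14045 reads. The ratio was 1.68 (interval 1.63 to 1.73), and the log2 difference was 0.74. Of the 13976 genes past the minimum, 65 genes, or 0.465%, had a difference at least as high as that of FAD5. Because FAD5 was singled out here after its value was seen, its place among all genes is a description.

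The genes for enzymes that act after FAD5 in the chloroplast, FAD6, FAD7 and FAD8, each differed by 14.3% or less. FAD6 (AT4G30950, chromosome 4, 15056975 to 15059794, minus strand), which adds the next double bond to plastid lipids, stood at 418 CPM in the wild type and 416 CPM in the mutant. Its ratio was 0.994 (interval 0.975 to 1.01), and its log2 difference of -0.01 turned to 0.03 under median-ratio and TMM scaling. Relative to the length of the gene models, FAD5 stood at 50.3% of FAD6 in Col-0, from 49.0 to 51.6%, and at 85.0% in npr1-1, from 83.2 to 86.8%. This pair was set side by side after the values were seen.

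FAD7 (AT3G11170, chromosome 3, 3499801 to 3502452, plus strand) and FAD8 (AT5G05580, chromosome 5, 1664134 to 1666527, plus strand) encode isozymes that add the last double bond to plastid lipids, and FAD8 is the one known for its induction by cold. FAD7 stood at 253 CPM in the wild type and 217 CPM in the mutant, giving a ratio of 0.857 (interval 0.836 to 0.880). This was the lowest ratio among the members, and 18.7% of all genes past the minimum had a difference at or below it. FAD8 stood at 83.7 CPM in the wild type and 89.0 CPM in the mutant, giving a ratio of 1.06 (interval 1.02 to 1.11). Of all genes past the minimum, 26.9% had a difference at or above that of FAD8. FAD7 was thus lower and FAD8 slightly higher in npr1-1, under the deposited scaling and under both other scalings. Of the reads per kb of this pair, FAD8 took 26.4% in Col-0, with a Clopper-Pearson 95% interval from 25.7 to 27.0%, and 30.7% in npr1-1, from 29.99 to 31.5%. FAD7 was the more abundant isozyme in both libraries.

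How the counting treated reads that match both genes is not given in the sources used here, and neither is the read length. The gene model of FAD8 also overlaps that of PAI2, on the opposite strand, by 57 bases in the deposited table. PAI2 stood at 13.4 CPM in the wild type and 13.1 CPM in the mutant, which is less than the level of FAD8.

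FAD2 (AT3G12120, chromosome 3, 3860285 to 3863050, minus strand) encodes the desaturase of the endoplasmic reticulum that turns oleic into linoleic acid. It stood at 237 CPM in the wild type and 221 CPM in the mutant, giving a ratio of 0.932 (interval 0.908 to 0.956). FAD3 (AT2G29980, chromosome 2, 12781591 to 12785053, minus strand), which turns linoleic into linolenic acid in the same membranes, stood at 139 and 135 CPM. Its ratio was 0.974 (interval 0.942 to 1.01), and its log2 difference of -0.04 became 0.004 under median-ratio and TMM scaling. Both genes of the endoplasmic reticulum route therefore differed from the wild type by 6.82% or less.

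ADS2 (AT2G31360, chromosome 2, 13371658 to 13373606, minus strand), a desaturase of saturated fatty acids known for its induction by cold and its need in chilling and freezing tolerance, stood at 351 CPM in the wild type and 334 CPM in the mutant. The ratio was 0.952 (interval 0.932 to 0.972), and under median-ratio and TMM scaling the interval included 1. ADS1 (AT1G06080, chromosome 1, 1843568 to 1846302, plus strand), its closest relative among the members at 77.2% coding identity, was near the minimum. ADS1 had 293 reads in the wild type and 311 in the mutant, or 5.76 and 6.10 CPM, and the interval of its ratio ran from 0.900 to 1.25. At this depth no difference of ADS1 was detectable.

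SFR2 (AT3G06510, chromosome 3, 2016385 to 2019677, plus strand) encodes the galactosyltransferase that moves galactose between galactolipids of the outer chloroplast envelope and is needed to survive freezing. SFR2 stood at 130.2 CPM in the wild type and 133 CPM in the mutant, giving a ratio of 1.02 (interval 0.987 to 1.06). The freezing enzyme was thus at a similar level in both libraries. In the reference, though not in the deposited table, its model overlaps AT3G06520 on the same strand by 255 bases. AT3G06520 stood at 1.12 CPM in the wild type and 1.69 CPM in the mutant, far below SFR2.

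Over the set, the counting interval of the ratio left out 1 for 6 of the 10 members, against 60.2% of all genes past the minimum. These were FAD5, FAD8 and SSI2, which were higher, and FAD2, FAD7 and ADS2, which were lower. Among all genes the interval lay above 1 for 23.5% and below 1 for 36.8%. Under TMM scaling it lay above 1 for FAD5, FAD6, FAD8, SSI2 and SFR2 and below 1 for FAD2 and FAD7, with shares of 28.9% and 29.5% of all genes.

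Per kb of gene model, the levels of the members spanned a wide range. In Col-0 ADS2 stood at 243 CPM per kb, FAD6 at 236, SSI2 at 181, FAD2 at 145, FAD7 at 139 and FAD5 at 119. Below them FAD3 stood at 94.8 CPM per kb, SFR2 at 59.7, FAD8 at 49.6 and ADS1 at 4.72. In this library every neighbour in the order differed by more than counting error. In npr1-1 FAD6 stood at 235 CPM per kb and ADS2 at 231, which did not differ beyond counting error, with a ratio from 0.996 to 1.04. FAD5, at 199.5 CPM per kb, had moved from place 6 in Col-0 to place 3 in npr1-1. It was followed by SSI2 at 187, FAD2 at 135, FAD7 at 119, FAD3 at 92.3, SFR2 at 61.0, FAD8 at 52.7 and ADS1 at 5.001 CPM per kb.

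**Figure D2:**
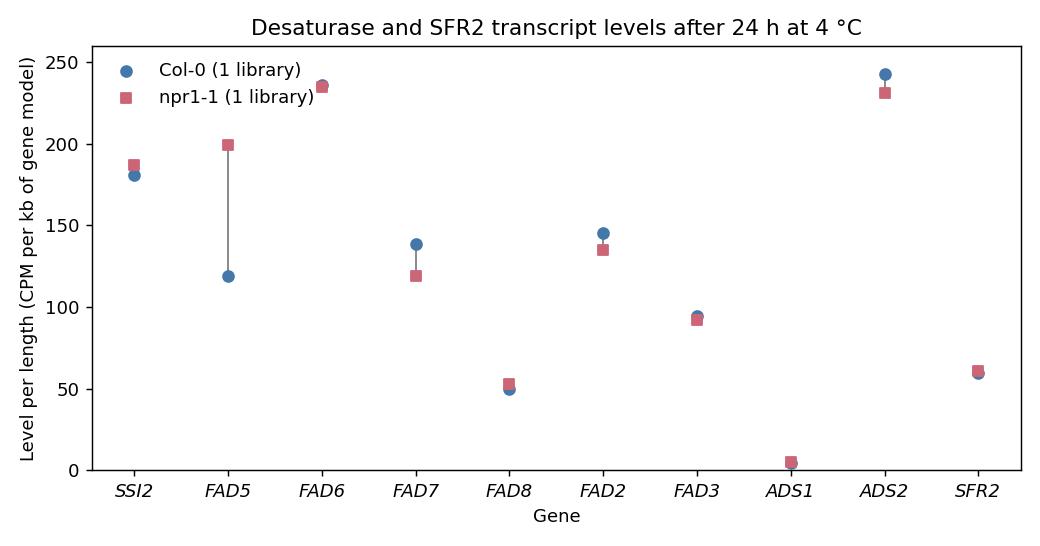
The level in CPM per kb of gene model (y axis) is plotted for each member (x axis), with a circle for the Col-0 library, a square for the npr1-1 library and a line between them. FAD5 has the longest line, from 119 to 199.5, and ADS1 lies near 5 in both libraries.

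FAD5 lies head to head with PIFI (AT3G15840), a chloroplast protein gene named for an increase in chlorophyll fluorescence after illumination. The gene starts of FAD5 and PIFI have 4 bases between them in the RefSeq models and 508 in the deposited ones, and the RefSeq model of FAD5 starts 408 bases before the deposited one. PIFI stood at 122 CPM in the wild type and 103 CPM in the mutant, giving a ratio of 0.851 (interval 0.820 to 0.883), so this neighbour was lower where FAD5 was higher. Within 30 kb of FAD5, 8 other genes passed the minimum, and their log2 differences ran from -0.36 to 0.00. All 8 were below 0 under the deposited scaling, among them PLDALPHA1, a phospholipase D gene, at -0.33. Under TMM scaling MBD11, AT3G15810 and ROD1 in this stretch were above 0, at 0.02, 0.04 and 0.02, and under median-ratio scaling likewise. The paralog AT3G15870, which lies downstream of FAD5 on the same strand, shares 62.7% of aligned coding bases with FAD5 and was not among the listed genes.

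**Figure D3:**
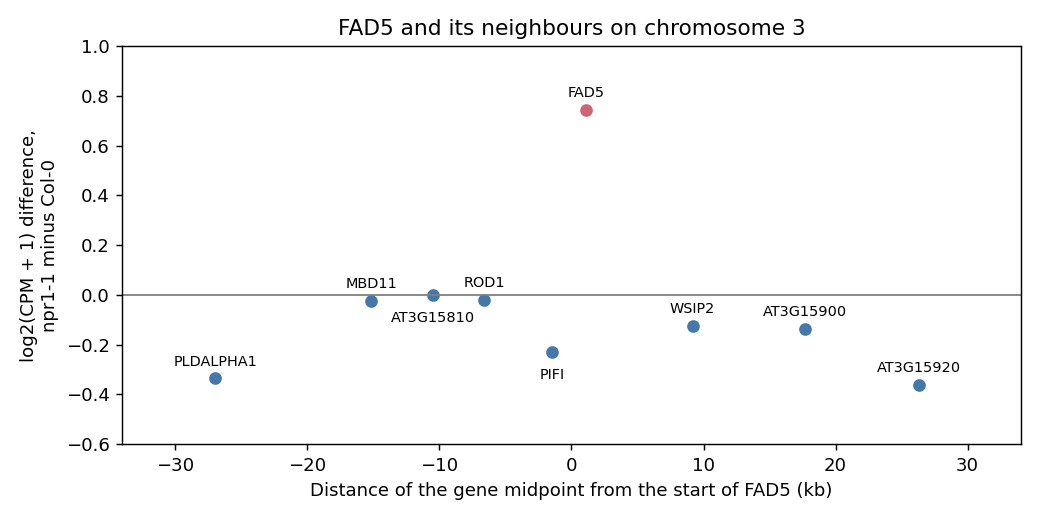
The log2(CPM + 1) difference, npr1-1 minus Col-0 (y axis), is plotted against the distance of each gene's midpoint from the start of FAD5 in kb (x axis), for the genes past the minimum. FAD5 stands at 0.74 and the 8 neighbours lie between -0.36 and 0.00.

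The promoters of FAD7 and FAD8 are shown because these isozymes differed in opposite directions, though each by 14.3% or less. Each is the stretch before the RefSeq gene start (TAIR10.1, plus strand), at chr3:3499287-3499536 for FAD7 and chr5:1663930-1664039 for FAD8, where it is shorter because another gene lies before it. Capitals mark TTGACT, a form of the W-box of WRKY factors, and TGACG, the core bound by TGA factors, the bZIP partners of NPR1.
FAD7: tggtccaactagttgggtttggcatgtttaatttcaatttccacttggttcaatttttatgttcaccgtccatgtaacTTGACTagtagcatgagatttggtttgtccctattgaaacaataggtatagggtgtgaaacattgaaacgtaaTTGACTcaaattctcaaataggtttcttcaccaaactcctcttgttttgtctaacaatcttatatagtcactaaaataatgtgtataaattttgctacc
FAD8: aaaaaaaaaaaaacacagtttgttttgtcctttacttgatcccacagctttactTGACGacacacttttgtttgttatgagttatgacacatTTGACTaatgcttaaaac
In the window from 250 bases before to 50 bases after the gene start, searched on both strands, TGACG was present in FAD7, FAD8 and SSI2, which is 3 of the 10 members, and in 23.1% of 27443 promoters. In FAD7 it overlaps the gene start and is therefore not marked. TTGACC or TTGACT was present in 6 of the 10 members, FAD6, FAD7, FAD8, SSI2, ADS1 and ADS2, and in 32.4% of all promoters. The window of FAD5, placed at the RefSeq start, lies for the most part within PIFI and held none of the motifs searched. Most of the 408 bases between this start and the deposited start of FAD5 were not searched, so their motifs are not known here.

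CCGAC, the core of the element bound by the CBF cold factors, was present in SSI2 and SFR2, 2 of the 10 members, and in 15.05% of all promoters. GAANNTTC, a pair of heat shock element units bound by heat shock factors, was present in FAD6 only among the members and in 11.6% of all promoters. CACGTG, the G-box, was present in 0 of the 10 members and in 7.68% of all promoters. The 30 bases around these matches are printed on the strand of the gene, with the match in capitals.
SSI2: acaaatattttaCCGACatatgtaagaaca
SFR2: aatgtcaaaagaCCGACaacatacgatgtc
FAD6: acatattttagGAATATTCgagttttggat
They lie at chr2:18119746-18119775 for SSI2, chr3:2016195-2016224 for SFR2 and, on the minus strand, chr4:15060008-15060037 for FAD6. The matches begin 115, 39 and 180 bases before the respective gene starts. SSI2, SFR2 and FAD6 had ratios of 1.04, 1.02 and 0.994, and a match describes letters, not binding.

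Genes that supply or use the products of these enzymes were taken from 11 lists with 89 genes, of which 82 were listed and 75 passed the minimum. None of the 75 was at least 1.5-fold apart, against 2.97% of all genes. Of the 75, 26 or 34.7% were above 0 and 49 below, against 41.0% of all genes above 0, and their median log2 difference was -0.08, against -0.05. Under either other scaling 34 or 45.3% were above 0 and 41 below, against 48.9% of all genes above 0, and the median was -0.039. After the median of genes of similar length was subtracted (the length correction below) it was -0.0060, so these counts and medians lie near those of all genes. Of the list of acyl-lipid desaturase paralogs outside the members, 4 of 9 passed the minimum, 1 above 0 and 3 below. The gene above 0 was FADA, at 43.5 CPM in the wild type and 49.4 CPM in the mutant. FADA was named after its value was seen, and its coding sequence was not aligned with those of the members. AT1G06100, annotated as a fatty acid desaturase, stood at 12.9 CPM in the wild type and 8.73 CPM in the mutant, giving a ratio of 0.679 (interval 0.601 to 0.767). ADS4, of the same family, stood at 7.35 and 6.08 CPM. AT1G06100 thus had the lowest log2 difference of all 75 genes, at -0.51, within the family to which FAD5 belongs.

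Genes of plastid fatty acid synthesis were close in both libraries, with 8 of 19 above 0, 11 below and a median of -0.03. Under either other scaling 12 were above 0 and 7 below. Of all genes, 41.0% were above 0 under the deposited scaling and 48.9% under either other. The median of this list was 0.015 under either other scaling and 0.024 after the length correction. The largest differences under the deposited scaling belonged to FaTA and AT4G13050, thioesterase genes whose enzymes release fatty acids for export. FaTA, near the minimum at 6.15 and 5.22 CPM, had an interval from 0.717 to 1.002, which included 1. AT4G13050 stood at 17.5 and 15.2 CPM (interval 0.789 to 0.959). Plastid glycerolipid assembly had a median of -0.21 and a mean of -0.090, with 2 of 5 above 0, also under either other scaling. The median was -0.17 under either other scaling and -0.16 after the length correction. PGP1, which makes the precursor of plastid phosphatidylglycerol, stood at 21.8 and 17.2 CPM, and CDS5, which supplies its substrate, at 18.7 and 15.1 CPM. ATS1, the plastid glycerol-3-phosphate acyltransferase, differed the other way, at 62.6 CPM in the wild type and 76.5 CPM in the mutant, giving a ratio of 1.22 (interval 1.17 to 1.28), and was named after its value was seen. The galactolipid and sulfolipid list, whose galactolipids are substrates of plastid desaturases and of SFR2, had a median of -0.12 with 1 of 6 above 0, and 2 of 6 under either other scaling. This median was -0.080 under those scalings, -0.048 after the length correction and -0.078 as a mean. The gene above 0 under the deposited scaling was MGD1, the main monogalactosyldiacylglycerol synthase, at 119 CPM in the wild type and 139 CPM in the mutant, giving a ratio of 1.17 (interval 1.13 to 1.21). DGD2, a digalactosyldiacylglycerol synthase, stood at 15.6 and 12.8 CPM.

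Phosphatidylcholine synthesis and acyl editing, which provides the substrate of FAD2 and FAD3, had 8 of 9 genes below 0, against 8240 of all 13976 genes. Under either other scaling 7 of 9 were below 0, against 7138 of all genes under median-ratio scaling and 7136 under TMM scaling. The median of this list, -0.10, became -0.064 under either other scaling and -0.037 after the length correction. LACS4, a long-chain acyl-CoA synthetase, stood at 193 and 156 CPM, and CCT1, which activates choline phosphate, at 34.6 and 29.3 CPM. Lipid transport from the endoplasmic reticulum to the plastid had a median of 0.0075, which became 0.049 under either other scaling and 0.045 after the length correction, with ABCI14, also known as TGD1, at 34.8 and 29.6 CPM and AT1G27695 at 5.11 and 6.22 CPM. The sphingolipid desaturases and hydroxylases had 1 of 5 genes above 0 and 4 below, also under either other scaling. Their median was -0.13 and their mean -0.081, and the median was -0.093 under either other scaling and after the length correction. The gene above 0 was FAH1, at 19.3 and 22.5 CPM, and its paralog FAH2 stood at 18.1 and 15.4 CPM. Lipid turnover in freezing had 6 of 7 genes below 0, against 8240 of all 13976 genes. The count was again 6 of 7 under either other scaling, against 7138 (median-ratio) and 7136 (TMM) of all genes. This list had a median of -0.14, which became -0.10 under either other scaling and -0.13 after the length correction. Its leading genes were the phospholipases D, PLDALPHA1 at 817 and 647 CPM and PLDDELTA at 107.9 and 88.7 CPM.

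The electron donors of the desaturases were read as separate lists, and where each protein resides in the cell was not examined. All 6 genes for cytochrome b5 and its reductase, listed as donors of endoplasmic reticulum enzymes, were above 0, against 41.0% of all genes. They had a median of 0.14 and stayed above 0 under median-ratio and TMM scaling, against 48.9% of all genes. For 4 of the 6 the counting interval lay above 1, against 23.5% of all genes. CB5-C stood at 43.8 CPM in the wild type and 55.4 CPM in the mutant, giving a ratio of 1.26 (interval 1.20 to 1.34), and CB5-A at 16.8 and 20.2 CPM. Among all genes split into 20 bins by length of the gene model, the median was 0.11 for the shortest bin and -0.11 for the longest. CB5-C and CB5-A are 766 and 722 bases long, and after the median of each length bin was subtracted, which is the length correction, the median of the list was 0.11. Ferredoxins and their reductases, which serve the plastid enzymes, had 2 of 7 genes above 0 and a median of -0.03. Under median-ratio and TMM scaling these became 4 of 7, against 48.9% of all genes above 0, and 0.01. After the length correction the median was 0.0031. FD3, a ferredoxin best known from roots, stood at 24.3 and 32.4 CPM, and FNR2, a leaf reductase, at 1094 and 951 CPM. The difference between these lists was not tested.

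**Figure D4:**
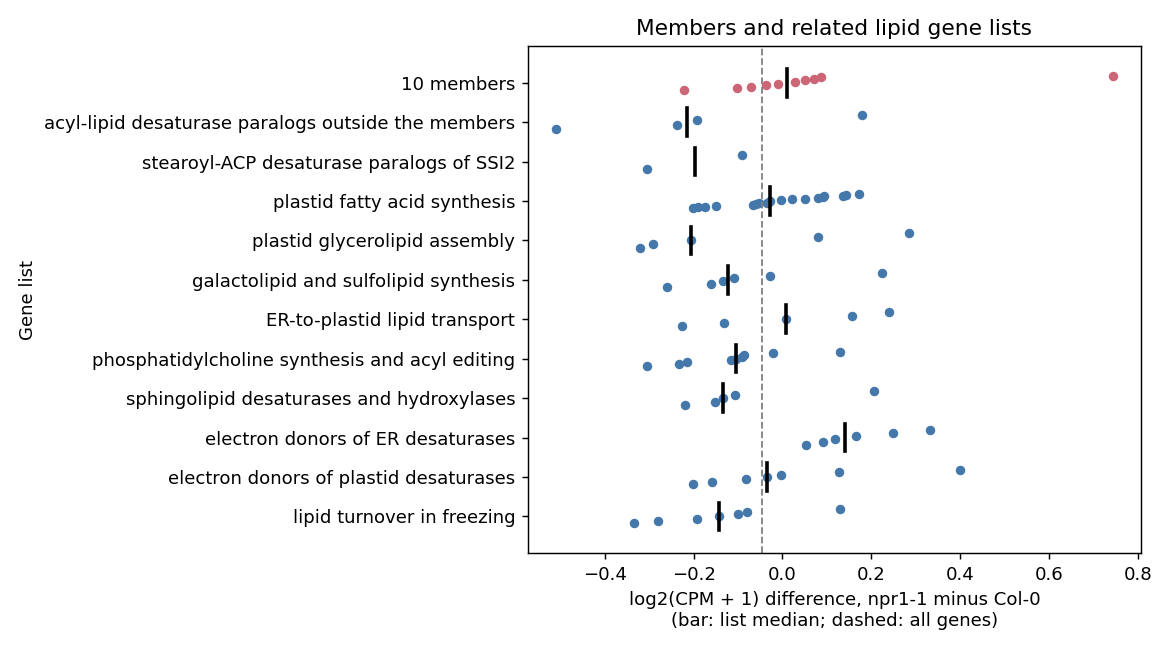
Each point is the log2(CPM + 1) difference, npr1-1 minus Col-0 (x axis), of 1 gene past the minimum in the list named on the y axis, with a black bar at the list's median and a dashed line at the median of all genes, -0.05. FAD5, at 0.74, is the point farthest to the right, and the other points lie between -0.51 and 0.40.

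As a check of the libraries, NPR1 stood at 22.0 CPM in the wild type and 18.7 CPM in the mutant, which does not test the genotype because a point mutation need not change the transcript. The libraries held 50864103 and 50976521 reads in listed genes, and 5 CPM stood for 254 and 255 reads. Of 2 leaf, 2 epidermis, 2 guard cell and 1 phloem marker, all were listed in both libraries, with ratios from 1.01 to 1.15. The root marker PYK10 stood at 47.2 and 48.8 CPM, and the 2 seed and 2 flower markers were not among the listed genes.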

How the data were processed

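RNA from leaves of cold-treated Col-0 and npr1-1 plants was sequenced on Illumina libraries, per the labels' protocols, and samples were grouped by the genotype label. The authors deposited CPM values, per the file headers, which sum to 1000000 per library over 18345 genes. They carry a decimal comma. The submitters' processing notes name TopHat2, DESeq2 and the build TAIR10, with no versions. Not given in the sources used here are the read counter, strand use, the filter on listed genes and read length, so multiply placed reads and opposite strands could shift single values. Other measures in the deposited tables are gene model lengths in bases.

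CPM values were used as deposited. Dividing by the value of 1 read gave whole numbers within 0.01 for 100% of values, and these reads served the exact conditional binomial (Clopper-Pearson) 95% intervals. PCR copies are not separate molecules, so intervals cover counting error only. Each difference is the npr1-1 value less the Col-0 value of log2(CPM + 1), which understates the change of low genes, over genes that reached 5 CPM in either library. With 1 library per genotype no test was run. Levels between genes were compared per kb of deposited gene model. Deposited IDs matched the RefSeq gene table of TAIR10.1 for 18154 genes, and 100% of these overlapped the reference gene on the same strand. Coding and upstream sequences were read from that genome, aligned with MAFFT 7.526 and searched with BLAST+ 2.17.0. Proteins were not used here, and a coding stretch of FAD7 and FAD8 is not reported here. Calculations used Python 3.11.15, numpy 2.4.6, pandas 2.3.3, scipy 1.17.1 and matplotlib 3.10.9, and were tested on simulated data.

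The members and lists were chosen with earlier results of these data known. Named genes are the members and, of each list, the 2 genes past the minimum with the largest difference. FADA and ATS1 were added after their values were seen. PIFI, MBD11, AT3G15810, AT3G15870, WSIP2 and ROD1 are neighbours of FAD5, and PAI2 and AT3G06520 overlap members. The alternatives were other pseudocounts, minimums, folds, scalings and a length correction. Intervals under other scalings were added after the data were seen.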

Additional observations from a re-analysis of the deposited data

How the results depend on the processing

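Median-ratio scaling and TMM scaling gave nearly the same values and moved the members by about 0.04. Under either of them the log2 difference was -0.059 for FAD2, 0.79 for FAD5, 0.0335 for FAD6, -0.18 for FAD7, 0.094 for SSI2 and -0.029 for ADS2. Corrected for length bins it was -0.035 for FAD2, 0.79 for FAD5, 0.038 for FAD6, -0.14 for FAD7, 0.15 for FAD8, 0.098 for SSI2, -0.034 for ADS2 and 0.096 for SFR2. The median of the 10 members, 0.01, became 0.053 under both scalings, 0.054 as a mean and 0.067 after the length correction. Of 50 member values under other settings 20 moved beyond the counting interval and 5 had the other sign, all for FAD3 and FAD6. Of 96 list medians 5 moved beyond it, 4 for the electron donors of plastid desaturases and 1 for galactolipid and sulfolipid synthesis, and 7 had the other sign. The share of FAD8 in its pair without a length correction was 24.9% in Col-0 and 29.1% in npr1-1. Genes at least 2-fold apart numbered 102, with 28 higher and 74 lower. A pseudocount of 5 gave 61 and a fold of 1.5 gave 415. Scalings, folds and corrections shift values by construction. No paired analysis was possible because each genotype has 1 library, which also leaves the spread between plants unmeasured. Counting error limits ADS1 most.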
